A study of Mus musculus with 12 samples.

Results

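The mitosis and G2/M genes described here are 49 mouse genes for mitotic cyclins, mitotic kinases, kinetochore and spindle proteins and the machinery of cytokinesis. They were taken by symbol from a written list. No measured value stands in the rule, though the members were chosen with earlier results of these data known. All 49 were found among the 56980 genes of the deposited table. All 49 also passed the filter on low counts, which 20411 genes passed. Their messenger RNA was measured in CD8+ T cells from tumours carried by wild type mice of the C57BL/6J strain. Panc02, a pancreatic cancer line of the mouse, formed the tumours, either as such or as cells that express Flt3L, a cytokine on which dendritic cells depend. Live cells (DAPI-) carrying CD45.2 and CD8 were sorted and split by asGM1 (asialo-GM1), a glycosphingolipid of the cell surface that NK cells and some activated T cells carry. This gave 4 groups of 3 libraries each, asGM1- and asGM1+ cells from Panc02 tumours and asGM1- and asGM1+ cells from Flt3L Panc02 tumours. The sort markers named include no antigen receptor of T cells, and nothing in the labels says that replicates are separate mice, so p-values here measure only the spread between these libraries, which may be technical.

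A cell enters mitosis when cyclin B bound to CDK1 becomes active, and the aurora and polo-like kinases then mature the centrosomes, build the spindle and correct faulty chromosome attachments. The spindle checkpoint restrains the anaphase promoting complex until the kinetochores are attached. That complex then marks securin and cyclin B for destruction, separase parts the sister chromatids, and kinesins and the chromosomal passenger complex organise the midzone at which the cell divides. Most of these genes are transcribed from late S phase into mitosis and are silent in resting lymphocytes, so their transcripts are widely used as a mark of dividing T cells. In bulk RNA, fewer dividing cells and less RNA of these genes per cell cannot be told apart.

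Late cell cycle promoters are known for 2 short elements, the CHR element, at which the DREAM complex represses and the MuvB complex with B-MYB and FOXM1 activates, and the CCAAT box, which NF-Y binds. The RefSeq promoters of the GRCm38.p6 assembly (250 bases before to 50 bases after each start) held an entry for 39 of the 49 members. Entries were lacking for Ska1, Kif20a, Ccna2, Spc24, Aurkb, Incenp, Foxm1, Cdc25c, Dlgap5 and Tpx2. In Aurka, Plk1, Bub1 and Hmmr the CHR match lay after the start. The 150 bases before the start are shown for 6 members picked as examples, so their share with the element does not stand for the 49. Of these 6 members, 5 hold and 1 lacks a CHR element in this stretch. They are Cdk1 (chr10:69352913-69353062, minus strand), Cdc20 (chr4:118437344-118437493, minus strand), Ube2c (chr2:164769779-164769928, plus strand), Top2a (chr11:99024190-99024339, minus strand), Mki67 (chr7:135716380-135716529, minus strand) and Ccnb1 (chr13:100786487-100786636, minus strand). Capitals mark the CHR element (TTTGAA or TTCGAA, or TTCAAA for a match on the other strand) and the CCAAT box (CCAAT, or ATTGG for a match on the other strand). Other spellings of the CHR element were not searched for, so a promoter without it, as for Ccnb1, lacks these letters only.
Cdk1: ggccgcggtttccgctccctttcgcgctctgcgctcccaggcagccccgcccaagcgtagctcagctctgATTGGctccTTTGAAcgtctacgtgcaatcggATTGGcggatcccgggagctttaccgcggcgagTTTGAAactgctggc
Cdc20: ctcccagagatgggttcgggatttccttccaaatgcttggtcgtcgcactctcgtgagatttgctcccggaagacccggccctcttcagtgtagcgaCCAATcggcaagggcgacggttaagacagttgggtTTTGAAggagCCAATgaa
Ube2c: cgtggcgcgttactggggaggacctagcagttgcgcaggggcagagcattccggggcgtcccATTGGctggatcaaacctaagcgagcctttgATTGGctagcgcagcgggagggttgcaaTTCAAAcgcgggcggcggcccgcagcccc
Top2a: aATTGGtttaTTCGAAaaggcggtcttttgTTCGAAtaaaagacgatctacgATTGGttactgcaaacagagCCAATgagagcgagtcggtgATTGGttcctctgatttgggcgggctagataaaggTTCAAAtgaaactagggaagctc
Mki67: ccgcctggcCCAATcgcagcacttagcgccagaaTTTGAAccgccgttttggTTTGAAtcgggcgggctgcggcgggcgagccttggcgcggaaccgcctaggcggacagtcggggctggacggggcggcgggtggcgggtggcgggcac
Ccnb1: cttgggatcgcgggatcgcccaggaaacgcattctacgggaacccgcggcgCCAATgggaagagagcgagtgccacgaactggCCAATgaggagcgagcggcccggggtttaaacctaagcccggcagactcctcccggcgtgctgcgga

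A CHR element on either strand was present in the 300 bases of 29 of the 39 member promoters (74.36%), against 21.66% of the 27025 genes of the table. A CCAAT box was present in 27 of 39 (69.23%), against 41.06% of all genes, and 24 of 39 held both (61.54%), against 9.654%. An E2F site (TTTGGCGC or TTTCGCGC), the element of genes expressed at the G1/S transition, was present in 2 of 39 (5.128%) and in 0.9288% of all genes. Among 34 genes of DNA replication and G1/S with an entry the order was the other way, with the E2F site in 35.29% and the CHR element in 17.65%. No motif holds the letters of another on either strand, and a match describes letters of the reference only.

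**Figure D1:**
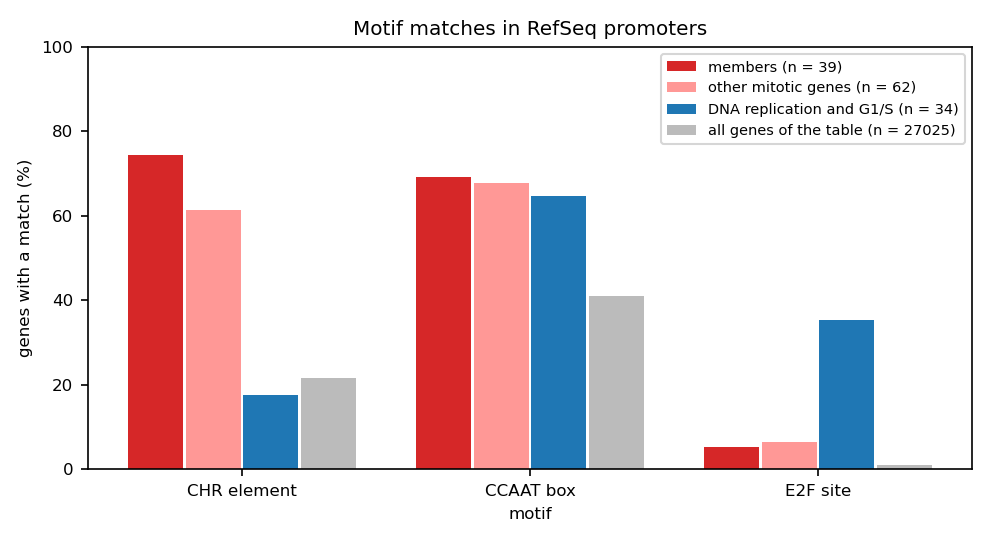
Share of genes (%) whose 300-base RefSeq promoter holds a CHR element, a CCAAT box or an E2F site, for the members (n = 39), 62 other mitotic genes, 34 genes of DNA replication and G1/S, and all 27025 genes of the table. The CHR element is in 74.36% of members and 17.65% of the replication genes, and the E2F site in 5.128% and 35.29%.

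The libraries held 98663008 to 102896605 counts each, and levels are given as CPM on library sizes scaled by the TMM method. The CD8 alpha chain gene Cd8a was present at 1569 to 2562 CPM, and 14 transcripts of T cell identity summed to 14210 ± 1725 CPM (SD, n = 3) in asGM1- cells of Panc02 tumours, 12573 ± 1278 in asGM1+ cells, 13963 ± 748 in asGM1- cells of Flt3L Panc02 tumours and 18132 ± 2454 in asGM1+ cells. The 10 markers of plasmacytoid dendritic cells summed to 349 to 403, 158 to 179, 1006 to 1124 and 209 to 247 CPM in the same 4 groups, with Cd300c at 0 in 4 libraries and Cox6a2 and Spib in 1 each. The 8 markers of conventional dendritic cells summed to 41.1 to 59.9, 16.8 to 33.8, 109 to 119.8 and 18.2 to 27.4 CPM. The 10 macrophage markers summed to 712 to 1223, 819 to 3165, 324 to 558 and 622 to 849.6 CPM, with the highest value in asGM1+ replicate 1 of Panc02 tumours. Over all libraries the sums were 111 to 281 CPM for NK cells, 248 to 614 for CD4 and regulatory T cells, 5.07 to 51.8 for B and plasma cells, 1.17 to 19.9 for neutrophils, 15.3 to 105 for tumour epithelium and 7.67 to 162 for fibroblasts. The marker Pax5 was at 0 in 11 of 12 libraries, Ms4a1 in 10, Krt19 in 9 and Ly6g in 8. Other markers of the same cell types were present in every library. Among them were Cd79b (5.04 to 35.7 CPM), Krt8 (4.66 to 70.9), Krt18 (1.29 to 30.7), Epcam (3.25 to 11.6) and Csf3r (0.648 to 13.6). The members' deviations from their group mean fell most with transcript length in asGM1- replicate 1 and asGM1+ replicate 3 of Flt3L Panc02 tumours, and counts are given below without this pair.

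Panc02 asGM1+ cells held the most mitotic transcripts of the 4 groups and Flt3L Panc02 asGM1- cells the least. The 49 members together made up 4024, 3748 and 3740.2 CPM in the 3 libraries of Panc02 asGM1- cells, 4242, 4524 and 4730.3 in Panc02 asGM1+ cells, 2892, 2502 and 2442 in Flt3L Panc02 asGM1- cells, and 4051, 3515 and 3424 in Flt3L Panc02 asGM1+ cells. The 3 Flt3L Panc02 asGM1- libraries lay below the other 9, and the 3 Panc02 asGM1+ libraries lay above the other 9. Gene by gene, the highest group mean was in Panc02 asGM1+ cells for 47 members and the lowest in Flt3L Panc02 asGM1- cells for 46. The exceptions at the top were Cenpa, the centromeric histone, and Pttg1, securin, both highest in Flt3L Panc02 asGM1+ cells. Those at the bottom were Cenpe, Cenpf and Knl1, whose lowest mean was in Flt3L Panc02 asGM1+ cells. The median coefficient of variation of the members was 7.22% and 6.31% in the 2 Panc02 groups and 15.6% and 13.7% in the asGM1- and asGM1+ groups of Flt3L Panc02 tumours. Set against the summed T cell identity transcripts, the members came to 27.4 ± 4.68% (SD, n = 3) in Panc02 asGM1- cells, 35.9 ± 1.83% in Panc02 asGM1+ cells, 18.7 ± 1.61% in Flt3L Panc02 asGM1- cells and 20.6 ± 4.60% in Flt3L Panc02 asGM1+ cells. On that scale the 2 Flt3L Panc02 groups overlapped.

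**Figure D2:**
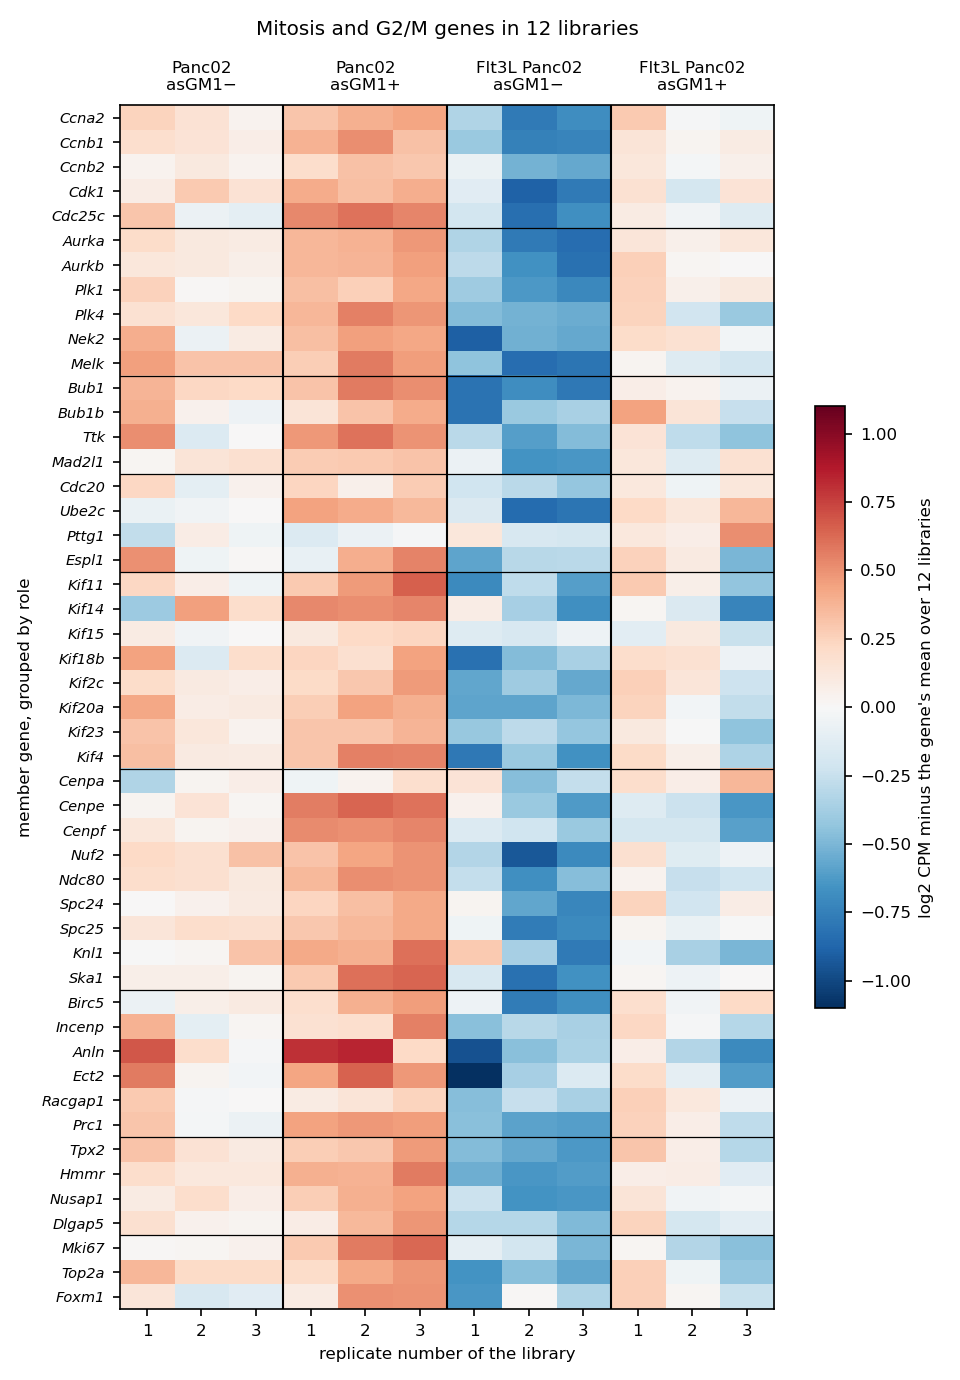
Each row is a member gene and each column a library, with colour for log2 CPM minus the gene's mean over the 12 libraries. The Flt3L Panc02 asGM1- libraries are blue in most rows and the Panc02 asGM1+ libraries red, and 46 members have their lowest group mean in the former.

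In Flt3L Panc02 tumours, mitotic genes were higher in asGM1+ than in asGM1- cells. Of the 49 members 19 were called higher and 0 lower at an adjusted p under 0.05 (edgeR's quasi-likelihood test, Benjamini-Hochberg over 20411 genes), where 2.77% of all genes were called higher. The 19 were Ccna2, Ccnb1, Aurka, Aurkb, Plk1, Nek2, Melk, Bub1, Ube2c, Kif18b, Kif2c, Kif20a, Kif4, Nuf2, Racgap1, Prc1, Tpx2, Hmmr and Nusap1. The log2 fold change was above 0 for 46 members with a median of 0.51, against a median of -0.01 over all genes, and 29 members had all 3 asGM1+ libraries above all 3 asGM1- libraries, as did 11.4% of all genes. Of the 19 called members 9 (Aurka, Aurkb, Bub1, Ccna2, Ccnb1, Hmmr, Nek2, Plk1 and Ube2c) stayed called whichever of the 6 libraries was left out. The count was 11 and 10 without asGM1- replicates 2 and 3 (0.832% and 1.3% of all genes). It was 9 and 12 without asGM1+ replicates 1 and 2 (1.5% and 1.48%), and 7 when the 6 libraries were fitted alone (1.04%). Scaled to the T cell identity transcripts, 0 were called, where 0.392% of all genes were called higher. The members' median was then 0.17 and that of all genes -0.37. In the same comparison 8 of 10 plasmacytoid and 6 of 8 conventional dendritic cell markers were called lower, 1 of 10 macrophage markers higher and 1 lower, and 2 of 14 T cell identity genes higher. Of the remaining cell types 3 of 5 markers of CD4 or regulatory T cells and 2 of 4 B and plasma cell markers were called lower, 1 of 5 of NK cells higher and 1 lower, and 0 of neutrophils, tumour epithelium and fibroblasts in either direction. Of the 10 macrophage markers 9 lay above 0, at a median log2 difference of 0.83. Their part in the mitotic differences was not tested.

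In Panc02 tumours, the members lay slightly higher in asGM1+ cells, and 0 passed the test. With edgeR 0 of 49 were called, where 0.892% of all genes were called in either direction. An unadjusted p under 0.05 was found for 12 members and for 2040 of the 20411 genes tested. DESeq2 called 2 and limma-voom with quality weights 11, all of them higher, where 0.637% and 1.4% of all genes were. The log2 fold change was above 0 for 48 members with a median of 0.25 (0.02 over all genes) and the largest was 0.53 ± 0.17 (SE) for Cenpe, a kinesin that holds kinetochores to microtubules (edgeR adjusted p = 0.254). The groups did not overlap, with asGM1+ cells higher, for 27 members, and for 8.67% of all genes. Here 8 of 10 plasmacytoid and 1 of 8 conventional dendritic cell markers, 2 of 5 of CD4 or regulatory T cells and 1 of 4 B and plasma cell markers were called lower, and no marker of another cell type was called. All 10 macrophage markers lay above 0, at a median of 0.99, and 6 had an unadjusted p under 0.05. Their part in the members' differences was not tested. Over the mean of both tumour types 18 members were called higher, where 1.68% of all genes were, and 0 lower. The mean effect was largest for Ube2c, at 0.62 ± 0.11 (edgeR adjusted p = 0.00626). Under T cell scaling Ube2c alone was called, where 0.456% of all genes were called higher. The interaction, which asks whether the gate difference itself differs between tumour types, was called for 0 members (0.367% of all genes were called). Its unadjusted p was under 0.05 for 14 members and for 3030 of the 20411 genes tested. DESeq2 called 1 and limma-voom 5, all of them above 0, where 1.15% and 1.29% of all genes were called in that direction. The members' median interaction was 0.27 above 0 with TMM scaling and turned to -0.25 with scaling to T cell identity transcripts, where that of all genes was -0.55.

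Between tumour types, asGM1- cells of Flt3L Panc02 tumours held fewer mitotic transcripts than asGM1- cells of Panc02 tumours. Of the 49 members 22 were called lower and 0 higher (edgeR), where 1.84% of all genes were called lower. All 49 log2 fold changes were below 0, with a median of -0.61 against 0.00 over all genes, and for 41 members the Flt3L Panc02 libraries all lay below the Panc02 libraries, as for 12.9% of all genes. The 22 were Ccna2, Ccnb1, Cdk1, the kinases Aurka, Aurkb, Plk1, Plk4, Nek2 and Melk, Bub1, the kinesins Kif18b, Kif2c, Kif20a and Kif4, Nuf2, Ndc80, Racgap1, Prc1, Tpx2, Hmmr, Nusap1 and Top2a. Bub1, Ccnb1, Hmmr, Melk and Nek2 stayed called without any 1 of the 6 libraries. The count was 12, 6 and 9 without Panc02 asGM1- replicates 1, 2 and 3 (0.933%, 0.24% and 0.432% of all genes). It was 5 and 9 without Flt3L Panc02 asGM1- replicates 2 and 3 (0.26% and 0.637% of all genes). With T cell scaling it was 2 (Bub1 and Melk), at a median of -0.62, where 0.412% of all genes were called lower. Here 5 of 10 plasmacytoid and 3 of 8 conventional dendritic cell markers were called higher, and 0 of 10 macrophage and 0 of 14 T cell identity genes were called. Of the macrophage markers 9 lay below 0, at a median of -1.14, with 9 at an unadjusted p under 0.05 and 7 lower without overlap. Of all 20411 genes tested 4137 had an unadjusted p under 0.05. Markers of CD4 and regulatory T cells were called higher for 1 and lower for 2 of 5, those of tumour epithelium higher for 1 and lower for 2 of 4, 1 of 5 of NK cells and 1 of 4 of B and plasma cells higher, 1 of 5 of fibroblasts lower and 0 of 4 of neutrophils. Their part in the result was not tested.

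In asGM1+ cells the difference between tumour types ran the same way for most members, and 8 were called lower, where 4.2% of all genes were. They were Bub1, Cenpe, Cenpf, Hmmr, Melk, Mki67, Ndc80 and Plk4. Of the 49 log2 fold changes 47 were below 0, with a median of -0.34 against -0.03 over all genes, and 32 members did not overlap and were lower (16.5% of all genes). Only Pttg1 did not overlap in the other direction among the members. Cenpf stayed called without any 1 of the 6 libraries. The count was 4, 1 and 5 without Panc02 asGM1+ replicates 1, 2 and 3 (1.28%, 1.06% and 5.83% of all genes). It was 1 without Flt3L Panc02 asGM1+ replicate 2 and 1 without replicate 3 (0.695% and 0.751% of all genes). When the 6 libraries were fitted alone it was 0, and 0 of all genes were called lower. With T cell scaling 44 were called lower, at a median of -0.85 against -0.55 over all genes, and so were 30.9% of all genes. Of the markers 5 of 14 T cell identity genes were called higher with TMM. Of the other cell types 3 of 10 macrophage markers were called lower, 1 of 10 plasmacytoid dendritic cell markers higher and 1 of 8 conventional ones lower. All 10 macrophage markers lay below 0, at a median of -1.25. Markers of tumour epithelium were called higher for 1 and lower for 2 of 4, 1 of 5 of fibroblasts lower, 1 of 5 of CD4 or regulatory T cells and 1 of 4 B and plasma cell markers higher, and 0 of NK cells and neutrophils. Their part in the members' differences was not tested. Each gate comparison shares 1 group of libraries with each tumour type comparison, so these are not independent.

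**Figure D3:**
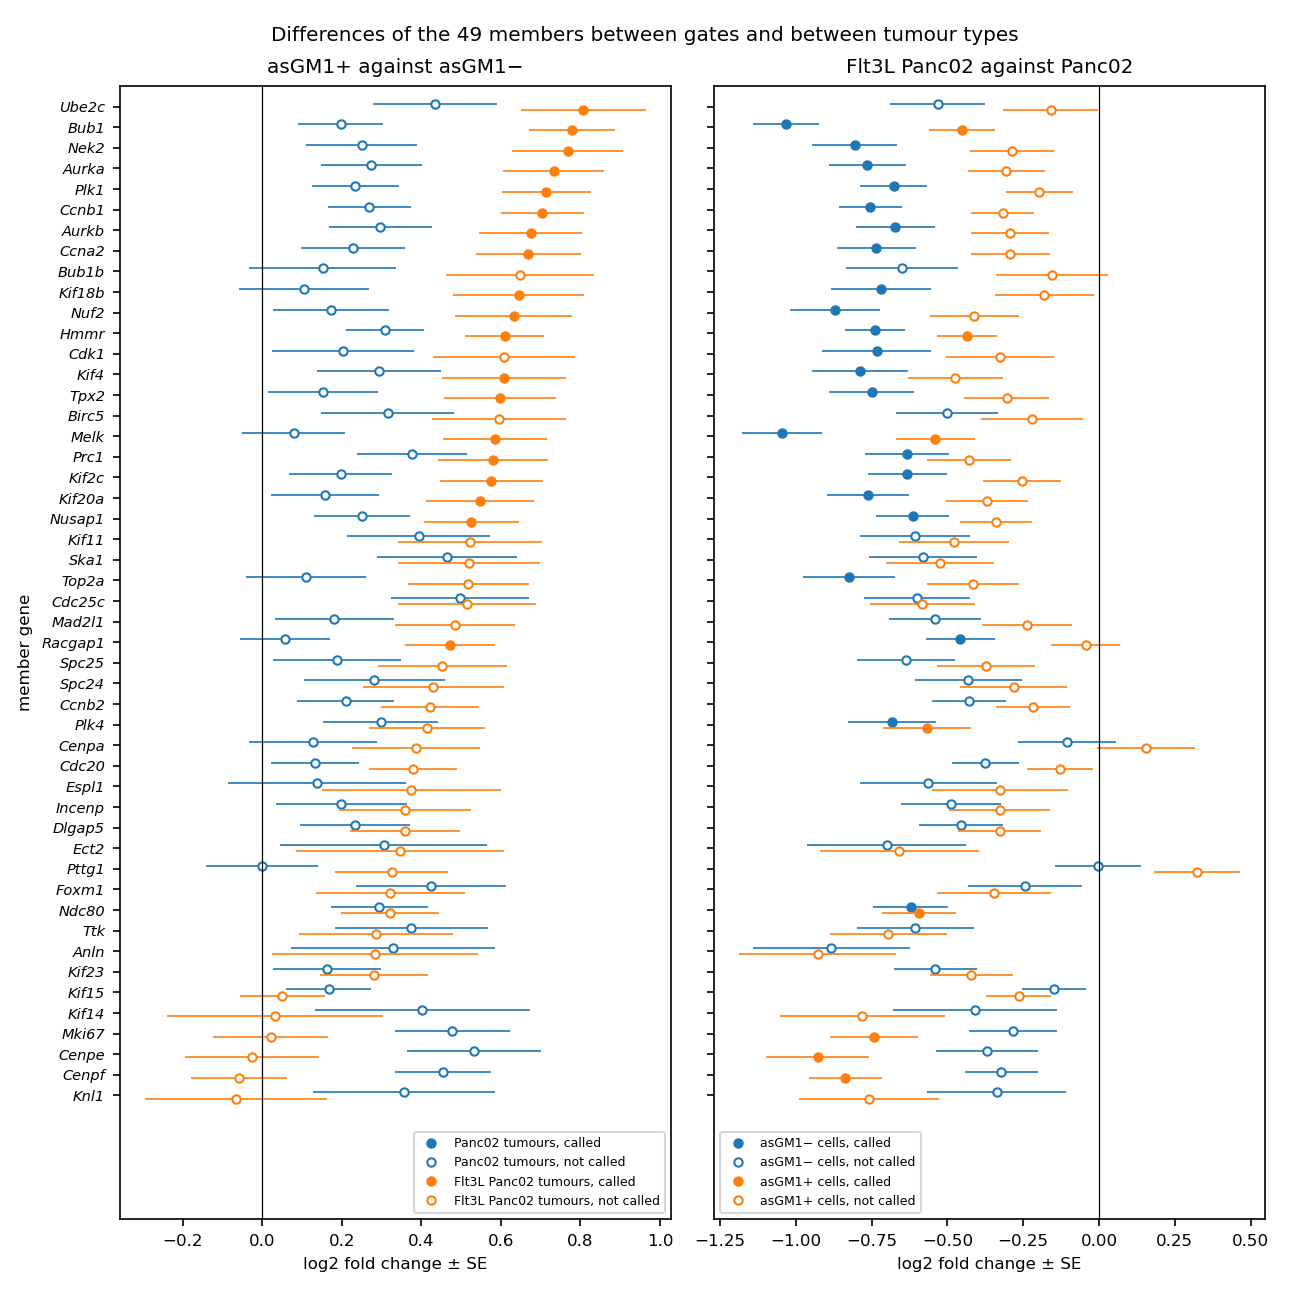
Log2 fold change (horizontal, ± SE) of each member, on the left asGM1+ against asGM1- cells in Panc02 (blue) and Flt3L Panc02 tumours (orange), on the right Flt3L Panc02 against Panc02 tumours in asGM1- (blue) and asGM1+ cells (orange). Filled points are called (edgeR adjusted p under 0.05, TMM scaling); 19 orange points are filled on the left, a count that is 0 with scaling to T cell identity transcripts, and 22 blue points on the right.

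Cyclins and the control of CDK1 formed the first group of 5. Calls by role are with TMM scaling, where 2.77% of all genes were called higher between the gates of Flt3L Panc02 tumours. Between tumour types 1.84% were called lower in asGM1- and 4.2% in asGM1+ cells. With scaling to T cell identity transcripts 0 members stayed called between the Flt3L Panc02 gates, and Bub1 and Melk between tumour types in asGM1- cells. In the mean of both tumour types only Ube2c stayed called. Ccnb1, cyclin B1, the partner of CDK1 in mitosis, lay at 139.9, 137 and 129 CPM in Panc02 asGM1- cells, 160.0, 175 and 154 in Panc02 asGM1+ cells, 92.7, 73.7 and 74.3 in Flt3L Panc02 asGM1- cells and 136, 126 and 131 in Flt3L Panc02 asGM1+ cells. The Flt3L Panc02 asGM1- libraries were the 3 lowest and the Panc02 asGM1+ libraries the 3 highest of the 12. The gate difference in Flt3L Panc02 tumours was 0.70 ± 0.10 on the log2 scale (SE, edgeR adjusted p = 0.00243), and the tumour type difference in asGM1- cells was -0.75 ± 0.10 (edgeR adjusted p = 0.00622). Ccna2, cyclin A2, which acts in S phase and early mitosis, lay at 203, 191 and 175 CPM in Panc02 asGM1- cells, 211, 224 and 231 in asGM1+ cells, 136, 99.5 and 107 in Flt3L Panc02 asGM1- cells and 208, 169 and 166 in asGM1+ cells. It was called in both comparisons as well, at 0.67 ± 0.13 and -0.73 ± 0.13. Cdk1, the mitotic kinase itself, lay at 120.4, 139 and 127 CPM and 151, 143 and 150.3 in the Panc02 gates, 104, 61.3 and 66.2 in Flt3L Panc02 asGM1- cells and 128, 99.3 and 126 in asGM1+ cells. The first of the Flt3L Panc02 asGM1- libraries reached into the range of the asGM1+ cells, and the gate difference of 0.61 ± 0.18 was not called (edgeR adjusted p = 0.0573). Its tumour type difference in asGM1- cells, -0.73 ± 0.18, was called (edgeR adjusted p = 0.0468), and ended in 5 of the 6 runs without 1 library. Ccnb2, a second B cyclin, and Cdc25c, a phosphatase that activates CDK1, had gate differences of 0.42 ± 0.12 and 0.51 ± 0.17 in Flt3L Panc02 tumours that were not called. In the mean of both tumour types Cdc25c was called higher, at 0.51 ± 0.12. Reads of Ccnb1 and Ccnb2 could be shared with their pseudogenes Ccnb1-ps (1.74 to 3.78 CPM) and Ccnb2-ps (0.136 to 0.446 CPM).

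Of the 6 mitotic kinases 5 were called higher in Flt3L Panc02 asGM1+ than in asGM1- cells (2.77% of all genes). All 6 were called lower in Flt3L Panc02 than in Panc02 asGM1- cells (1.84% of all genes), and Melk alone with T cell scaling. Plk1, polo-like kinase 1, needed for centrosome maturation and cytokinesis, lay at 108, 91.5 and 92.8 CPM in Panc02 asGM1- cells, 114, 109 and 121 in asGM1+ cells, 68.9, 58.5 and 55.4 in Flt3L Panc02 asGM1- cells and 108, 94.2 and 97.9 in asGM1+ cells. Aurka, aurora A of the centrosome, lay at 59.7, 56 and 55.4, 66.8, 67.9 and 72.2, 41.4, 30.3 and 29.1 and 56.9, 53.9 and 56.7 CPM in the same order of groups. Both separated the Flt3L Panc02 asGM1- libraries from the other 9 without overlap, with gate differences of 0.71 ± 0.11 (edgeR adjusted p = 0.0031) and 0.73 ± 0.13 (edgeR adjusted p = 0.00556). Melk, a kinase abundant in proliferating cells, lay at 46.8, 42.7 and 42.7 and 41.4, 51 and 47.2 CPM in the Panc02 gates, 25.2, 19.2 and 19.6 in Flt3L Panc02 asGM1- cells and 35, 31.1 and 29.8 in asGM1+ cells. Its tumour type difference in asGM1- cells, -1.05 ± 0.13 (edgeR adjusted p = 0.00404), was the largest of the members and stayed called in all 19 alternatives run. Aurkb, the kinase of the passenger complex, and Nek2, which separates the centrosomes, were higher in Flt3L Panc02 asGM1+ cells by 0.68 ± 0.13 and 0.77 ± 0.14. Plk4, which starts centriole duplication, lay at 38.5, 37.5 and 39.9, 44.3, 50.3 and 47.9, 24.7, 23.9 and 23.6 and 40.7, 29.7 and 25.9 CPM in the 4 groups. Its gate difference of 0.41 ± 0.15 in Flt3L Panc02 tumours was not called (edgeR adjusted p = 0.102), and both tumour type differences were, at -0.68 ± 0.15 in asGM1- and -0.57 ± 0.15 in asGM1+ cells.

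**Figure D4:**
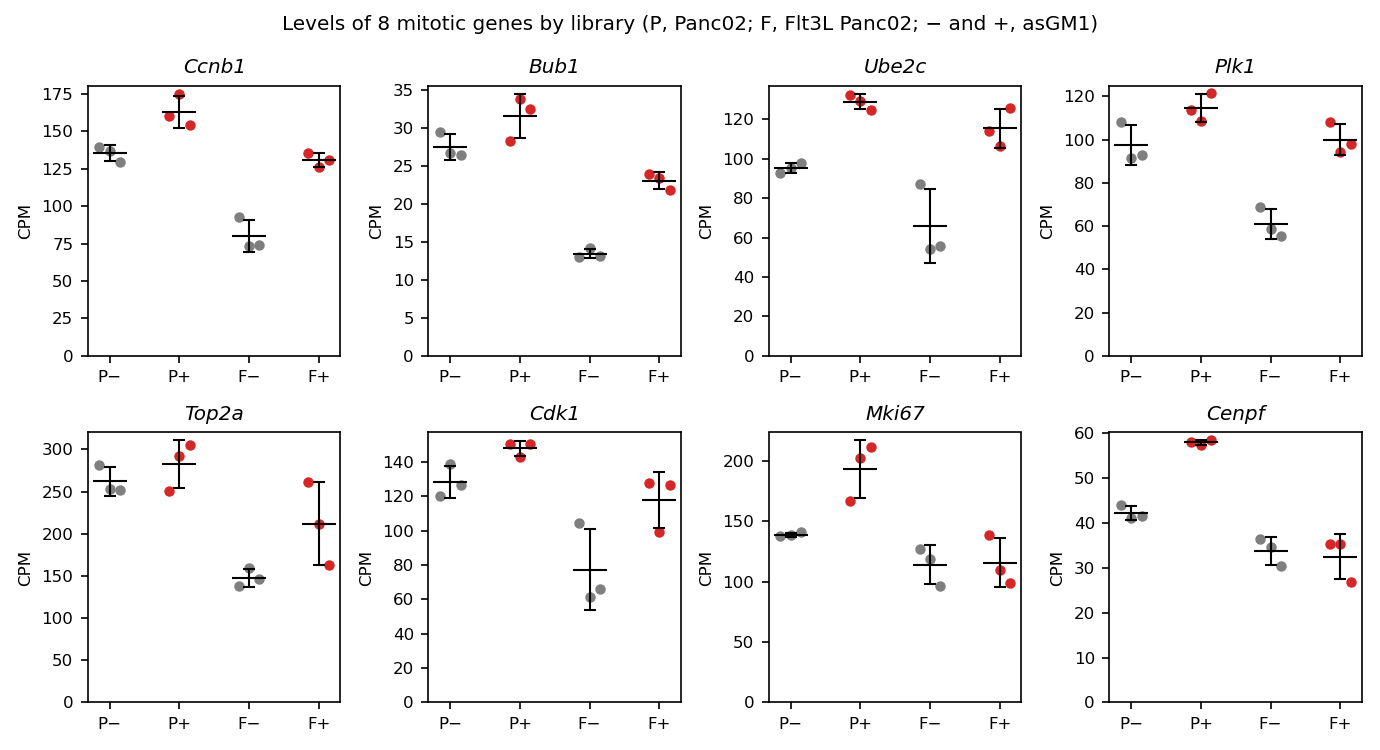
CPM of 8 members in each of the 12 libraries (grey, asGM1-; red, asGM1+), with the group mean and SD as bars (n = 3). In Flt3L Panc02 tumours Ccnb1, Bub1, Ube2c, Plk1 and Top2a do not overlap between the gates, whereas Cdk1, Mki67 and Cenpf do.

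Among the 4 genes of the spindle checkpoint, Bub1 passed the test in 4 of the 6 comparisons. Bub1, a kinase that gathers checkpoint proteins at kinetochores, lay at 29.5, 26.7 and 26.5 CPM in Panc02 asGM1- cells, 28.4, 33.9 and 32.5 in asGM1+ cells, 13, 14.2 and 13.2 in Flt3L Panc02 asGM1- cells and 24.1, 23.4 and 21.8 in asGM1+ cells. The 3 Flt3L Panc02 asGM1- libraries lay close together and below the other 9. The gate difference in Flt3L Panc02 tumours was 0.78 ± 0.11 (edgeR adjusted p = 0.00164), the lowest p of the members there, and the tumour type difference was -1.03 ± 0.11 in asGM1- cells (edgeR adjusted p = 0.00254) and -0.45 ± 0.11 in asGM1+ cells (edgeR adjusted p = 0.0342). The call in asGM1+ cells ended in all 6 runs without 1 library. Over the mean of both tumour types its gate difference was 0.49 ± 0.08 (edgeR adjusted p = 0.00266). Its interaction, 0.58 ± 0.15, was the largest of the members and was not called (edgeR adjusted p = 0.127). Mad2l1, the MAD2 protein that inhibits CDC20, lay at 90.8, 98.8 and 101, 109, 109 and 112, 85.5, 56.9 and 57.4 and 97.7, 81 and 101 CPM in the 4 groups. One of its Flt3L Panc02 asGM1- libraries, replicate 1, lay within the range of asGM1+ cells. Ttk, the MPS1 kinase, lay at 23.9, 15 and 16.8, 23.3, 25.3 and 23.6, 13.6, 11 and 12 and 18.6, 13.7 and 12.3 CPM and overlapped between the gates in both tumour types. Bub1b, the BUBR1 protein, differed between the gates of Flt3L Panc02 tumours by 0.65 ± 0.19 and was not called (edgeR adjusted p = 0.0518).

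Of the 4 genes of the anaphase promoting complex and chromatid separation 1, Ube2c, was called between the gates of Flt3L Panc02 tumours and 0 between tumour types. Ube2c, the ubiquitin-conjugating enzyme of that complex, lay at 92.9, 95.1 and 97.8 CPM in Panc02 asGM1- cells, 132, 129 and 125 in asGM1+ cells, 87.3, 54.4 and 55.9 in Flt3L Panc02 asGM1- cells and 114, 106 and 126 in asGM1+ cells. The gates did not overlap in either tumour type. The difference was 0.81 ± 0.16 in Flt3L Panc02 tumours (edgeR adjusted p = 0.0104), the largest of the 49, and 0.43 ± 0.16 in Panc02 tumours (edgeR adjusted p = 0.338). Cdc20, the activator that the checkpoint restrains, lay at 191, 151 and 169, 192, 169.8 and 198, 140.0, 133 and 121 and 177, 158 and 178 CPM, with a gate difference of 0.38 ± 0.11 in Flt3L Panc02 tumours that was not called (edgeR adjusted p = 0.0553). Espl1, separase, lay at 38.3, 26.2 and 27.2, 25.6, 35.8 and 39.6, 18.1, 21.9 and 22.1 and 32.4, 29.1 and 19.1 CPM and overlapped between the gates in both tumour types. Pttg1, securin, which keeps separase inactive, lay at 49.9, 63.4 and 58.2 CPM in Panc02 asGM1- cells, 54.3, 57.6 and 59.5 in asGM1+ cells, 65.4, 53.1 and 52.7 in Flt3L Panc02 asGM1- cells and 65.3, 63.3 and 85.9 in asGM1+ cells. Of all members it differed least between tumour types in asGM1- cells, by 0.00 ± 0.14. In asGM1+ cells it lay higher in Flt3L Panc02 tumours, by 0.32 ± 0.14, and was not called (edgeR adjusted p = 0.187).

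Of the 8 kinesins Kif18b, Kif2c, Kif20a and Kif4 were called higher in asGM1+ cells of Flt3L Panc02 tumours, with differences of 0.64, 0.58, 0.55 and 0.61, and these calls ended in 3 to 5 of the 6 runs without 1 library. Kif2c, which shortens microtubules at centromeres, lay at 55.8, 51.9 and 51, 55.9, 59.3 and 66.8, 32.6, 36.9 and 32.8 and 58.1, 53.1 and 41.3 CPM in Panc02 asGM1-, Panc02 asGM1+, Flt3L Panc02 asGM1- and Flt3L Panc02 asGM1+ cells. Kif4, a chromokinesin, lay at 39.8, 33.8 and 33.6, 39.1, 46.2 and 46, 18.3, 23.8 and 19.9 and 36.6, 33.1 and 24.9 CPM in the same order. In both genes asGM1+ replicate 3 of Flt3L Panc02 tumours was the lowest of its group, yet above the asGM1- libraries. Kif14, a kinesin of late cytokinesis with few counts, lay at 3.29, 5.93 and 4.95, 6.26, 6.20 and 6.27, 4.58, 3.37 and 2.72 and 4.40, 3.89 and 2.62 CPM, and its gate difference in Flt3L Panc02 tumours was 0.03 ± 0.27. Kif11 and Kif15, motors that push the spindle poles apart, differed there by 0.52 ± 0.18 and 0.05 ± 0.11, and Kif23, a part of centralspindlin, by 0.28 ± 0.14, and none of the 3 was called. Between tumour types Kif18b, Kif2c, Kif20a and Kif4 were called lower in Flt3L Panc02 asGM1- cells, by -0.63 to -0.79, and 0 of the 8 kinesins were called in asGM1+ cells.

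Of the 9 kinetochore and centromere genes 1 was called higher between the gates of Flt3L Panc02 tumours, 2 (Nuf2 and Ndc80) lower between tumour types in asGM1- cells and 3 (Cenpe, Cenpf and Ndc80) lower in asGM1+ cells. Nuf2, a subunit of the NDC80 complex that grips microtubules, lay at 53.1, 51.3 and 57.1 CPM in Panc02 asGM1- cells, 56.4, 61.6 and 64.1 in asGM1+ cells, 36.4, 23.9 and 28.1 in Flt3L Panc02 asGM1- cells and 51.5, 41.6 and 43.7 in asGM1+ cells. It was the one called between the gates of Flt3L Panc02 tumours, at 0.63 ± 0.15 (edgeR adjusted p = 0.0232), and that call ended in 3 of 6 runs without 1 library. Ndc80, Spc24 and Spc25, the other subunits, differed between those gates by 0.32 ± 0.12, 0.43 ± 0.18 and 0.45 ± 0.16 and were not called. Cenpf, a large protein of the outer kinetochore, lay at 44.1, 41.2 and 41.6 CPM in Panc02 asGM1- cells, 58.1, 57.4 and 58.5 in asGM1+ cells, 36.5, 34.7 and 30.4 in Flt3L Panc02 asGM1- cells and 35.3, 35.4 and 26.8 in asGM1+ cells. Its 3 Panc02 asGM1+ libraries stood above the other 9, while the gates of Flt3L Panc02 tumours overlapped. The tumour type difference in asGM1+ cells was -0.84 ± 0.12 (edgeR adjusted p = 0.00579), the smallest p of the members in that comparison, and the gate difference in Flt3L Panc02 tumours was -0.06 ± 0.12 (edgeR adjusted p = 0.81). Cenpe had the same order of group means, at 39.6, 43 and 39.2, 57.3, 60.2 and 58.5, 40.1, 29.1 and 25.2 and 35, 32.8 and 24.8 CPM, with a tumour type difference of -0.93 ± 0.17 in asGM1+ cells (edgeR adjusted p = 0.0131) and the lowest interaction of the members, -0.56 ± 0.24 (edgeR adjusted p = 0.304). Knl1, the scaffold that recruits checkpoint proteins, lay at 25, 25.3 and 31.1, 33.4, 32.7 and 38, 30.4, 19.4 and 14.6 and 24.4, 19.5 and 17.6 CPM and had the lowest gate difference in Flt3L Panc02 tumours, -0.07 ± 0.23. Ska1, which follows shrinking microtubule ends, lay at 8.48, 8.48 and 8.30, 9.90, 12.3 and 12.6, 7.19, 4.61 and 5.10 and 8.24, 7.83 and 8.16 CPM. Its gates did not overlap in either tumour type, and it was called in the mean of both, at 0.49 ± 0.13 (edgeR adjusted p = 0.0395). Cenpa differed between the gates by 0.39 ± 0.16 in Flt3L Panc02 tumours and was not called in any comparison.

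The passenger complex and cytokinesis genes numbered 6, and Racgap1 and Prc1 were called higher in asGM1+ cells of Flt3L Panc02 tumours, by 0.47 ± 0.11 and 0.58 ± 0.14. Prc1, which bundles the midzone microtubules, lay at 94.1, 74.9 and 72.8 CPM in Panc02 asGM1- cells, 103, 106 and 104 in asGM1+ cells, 55.4, 50.6 and 50.1 in Flt3L Panc02 asGM1- cells and 90.6, 80.1 and 62.7 in asGM1+ cells. Its mean gate difference over both tumour types, 0.48 ± 0.10 (edgeR adjusted p = 0.0135), stayed called in all 12 runs without 1 library, while the call within Flt3L Panc02 tumours ended in 4 of 6. Birc5, survivin of the passenger complex, lay at 129, 141 and 144, 153, 177 and 186, 129.6, 79.1 and 84.4 and 154, 131 and 157 CPM, and its gate difference in Flt3L Panc02 tumours, 0.59 ± 0.17, lay at the threshold (edgeR adjusted p = 0.0503). Anln, anillin of the contractile ring, lay at 22.7, 16.2 and 14, 24.7, 25.3 and 16.5, 7.29, 10.3 and 11.1 and 14.9, 11.3 and 8.70 CPM. Its libraries spread widely within each group, and its tumour type differences of -0.88 ± 0.26 in asGM1- and -0.93 ± 0.26 in asGM1+ cells, the latter the lowest of the members, were not called (edgeR adjusted p = 0.0825 and 0.0565). Incenp, the scaffold of the passenger complex, and Ect2, the exchange factor that activates RhoA at the midzone, were not called in any of the 6 comparisons.

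Of 4 spindle assembly genes 3 were called in both the gate comparison of Flt3L Panc02 tumours and the tumour type comparison of asGM1- cells. Hmmr, a microtubule-binding protein of the spindle poles, lay at 45.1, 42.7 and 42.8 CPM in Panc02 asGM1- cells, 51.7, 51.4 and 58.6 in asGM1+ cells, 27.3, 25.4 and 25.7 in Flt3L Panc02 asGM1- cells and 41.5, 41.9 and 36.2 in asGM1+ cells. None of the 4 groups overlapped another, and the order was Panc02 asGM1+, Panc02 asGM1-, Flt3L Panc02 asGM1+ and Flt3L Panc02 asGM1-. Its differences were 0.61 ± 0.10 between the gates of Flt3L Panc02 tumours (edgeR adjusted p = 0.00375), -0.74 ± 0.10 between tumour types in asGM1- cells (edgeR adjusted p = 0.00539) and -0.44 ± 0.10 in asGM1+ cells (edgeR adjusted p = 0.0276). The last of these ended in 5 of 6 runs without 1 library. Nusap1, which links microtubules to chromosomes, lay at 78.6, 84.5 and 77.7, 89.2, 96.7 and 100.5, 62.7, 47 and 47.6 and 81.4, 72.1 and 72.8 CPM, and Tpx2, the activator of aurora A, differed between the Flt3L Panc02 gates by 0.60 ± 0.14. Dlgap5, which stabilises kinetochore fibres, lay at 52.4, 47.9 and 47.2, 49.2, 59.2 and 65, 37.3, 37.3 and 33.1 and 55, 40.4 and 42.7 CPM and was not called.

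Mki67, Top2a and Foxm1 were not called between the gates. Mki67, the chromosome surface protein Ki-67 by which dividing T cells are counted, lay at 138, 138 and 141 CPM in Panc02 asGM1- cells, 167, 202 and 212 in asGM1+ cells, 127, 119 and 96.1 in Flt3L Panc02 asGM1- cells and 139, 109 and 99.2 in asGM1+ cells. The gates overlapped in Flt3L Panc02 tumours, at 0.02 ± 0.14 (edgeR adjusted p = 0.952), and did not in Panc02 tumours, at 0.48 ± 0.15 (edgeR adjusted p = 0.226). It was called lower in Flt3L Panc02 than in Panc02 asGM1+ cells, by -0.74 ± 0.15 (edgeR adjusted p = 0.0173), and that call ended in 3 of 6 runs without 1 library. Top2a, the topoisomerase that untangles sister chromatids, lay at 282, 253 and 252, 251, 292 and 306, 138, 159 and 146 and 261, 212 and 163 CPM in the 4 groups. Its Flt3L Panc02 asGM1- libraries were the lowest of the 12, and it was called between tumour types in asGM1- cells, at -0.83 ± 0.15 (edgeR adjusted p = 0.0164). Foxm1, the transcription factor of late cell cycle genes, lay at 35.4, 28.7 and 29.7, 34.5, 45.9 and 45.4, 20.8, 32.6 and 25.7 and 38.9, 32.7 and 27.3 CPM. Its groups overlapped in both gate and both tumour type comparisons, and none of its differences passed the test.

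The members with the lowest gate differences in Flt3L Panc02 tumours were also the longest. Lengths of the longest transcript, from GENCODE vM21 on GRCm38, had a median of 3334 bases over the 49 members, and the 5 longest were Cenpf (11130 bases), Mki67 (10061), Kif14 (8943), Cenpe (7910) and Knl1 (7800.0). Those 5 had the 5 lowest gate differences in Flt3L Panc02 tumours, from -0.07 to 0.03. Which transcript of each gene these cells express was not tested, so the expressed one may be shorter. The next longest, Mad2l1 (7557 bases) and Espl1 (6658), differed by 0.48 and 0.37 between the gates of Flt3L Panc02 tumours. Between tumour types in asGM1+ cells they differed by -0.24 and -0.33. Across the 49 members that difference and log2 length had a Pearson r of -0.54 and a Spearman rho of -0.37, and the tumour type difference in asGM1+ cells an r of -0.58 and a rho of -0.48, as descriptions over genes of the same 12 libraries. Over 19681 genes the rho values were -0.14 and -0.19. For the gate difference in Panc02 tumours and the tumour type difference in asGM1- cells the members' r was 0.33 and 0.08. Of the 24 longer members 6 were called between the gates of Flt3L Panc02 tumours and of the 25 shorter members 13. The rho of the members' deviations from their group mean with length was -0.64 in Flt3L Panc02 asGM1+ replicate 3 and -0.31 in asGM1- replicate 1, against 0.53 and 0.50 in asGM1+ replicates 1 and 2 and 0.48 in asGM1- replicate 2. In the 6 Panc02 libraries it ran from -0.14 to 0.15, and the 3 deviations of a group sum to 0 for each gene, so they cannot all share a sign. With a length term for each library the counts were 26 higher between the gates of Flt3L Panc02 tumours and 9 lower between tumour types in asGM1+ cells, where 5.6% and 4.62% of all genes were called in those directions. Mki67 then differed by 0.31 between those gates (edgeR adjusted p = 0.162) and by -0.50 between tumour types in asGM1+ cells (edgeR adjusted p = 0.0456). Without Flt3L Panc02 asGM1- replicate 1 and asGM1+ replicate 3, the 2 with the lowest rho, 29 members were called higher between the gates (2.52% of all genes), all 49 lay above 0 and the median was 0.65. The former held the highest value of its group for 32 members and the latter the lowest of its group for 31, so leaving either out widens the difference between the gates for those members by construction. In asGM1+ cells 3 members were then called lower between tumour types (1.14% of all genes). GC content ran with the differences too, at a members' rho of 0.28 for the gates and 0.55 for tumour types in asGM1+ cells, and a GC term gave 30 and 4 calls, where 3.76% and 3.69% of all genes were called in those directions.

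**Figure D5:**
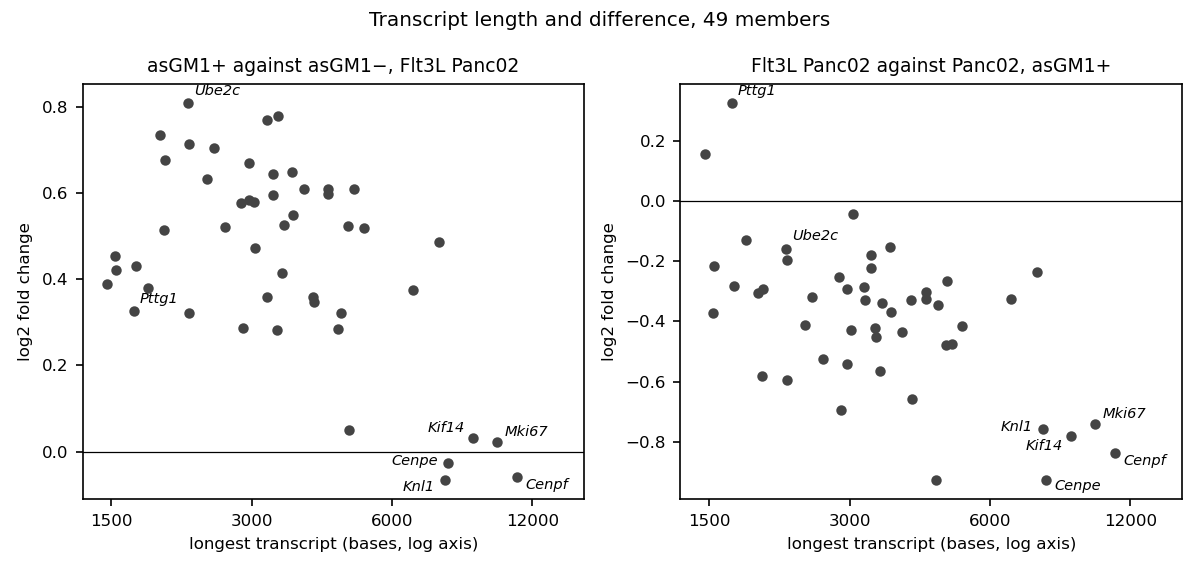
Log2 fold change of each of the 49 members against its longest transcript (bases, log axis), left for the gates of Flt3L Panc02 tumours and right for tumour types in asGM1+ cells. The 5 longest members lie at or near 0 on the left and at -0.74 or lower on the right, with TMM scaling.

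With TMM scaling, other mitotic genes and genes of DNA replication ran in the direction of the members wherever they were called. These lists, like the members, were chosen with earlier results of these data known. They were not counted under scaling to T cell identity transcripts, with which the members' calls fell from 19 to 0 and from 22 to 2. Of 75 other mitotic genes (all tested) 11 were called higher and 0 lower between the gates of Flt3L Panc02 tumours, 0 in Panc02 tumours, 14 lower between tumour types in asGM1- cells and 7 lower in asGM1+ cells. Of all genes 2.77% were called higher in the first of these comparisons, and 1.84% and 4.2% lower in the last 2. The medians of the 75 genes in these 4 comparisons were 0.31, 0.20, -0.50 and -0.33. Tubb4b, a beta tubulin, Kif22, a chromokinesin, and Gtse1, a microtubule-tip protein, led the first, with differences of 0.62 ± 0.11, 0.51 ± 0.10 and 0.55 ± 0.11. Ckap2, a microtubule nucleator of the spindle, was lower in Flt3L Panc02 tumours in asGM1- cells by -0.73 ± 0.11 and in asGM1+ cells by -0.81 ± 0.11. Of 21 regulators of mitotic transcription, subunits and relatives of the DREAM and MuvB complexes and of the E2F family, 2 were called higher between the gates of Flt3L Panc02 tumours, Mybl2 by 0.94 ± 0.15 and Rbbp4 by 0.48 ± 0.10. Mybl2 encodes B-MYB, which joins MuvB at CHR elements, and averaged 60.6 CPM in Panc02 asGM1- cells, 75.4 in asGM1+ cells, 34.6 in Flt3L Panc02 asGM1- cells and 66.2 in asGM1+ cells. It was also called lower between tumour types in asGM1- cells, by -0.81 ± 0.15. Of 45 genes of DNA replication and G1/S 15 were called higher between the gates of Flt3L Panc02 tumours (2.77% of all genes). In asGM1- cells 13 were called lower between tumour types (1.84% of all genes), and 0 were called in either other comparison. Chaf1b, a histone chaperone subunit, Mcm5, a helicase subunit, and Fen1, a nuclease of Okazaki fragments, led the gate difference, at 0.63 ± 0.11, 0.67 ± 0.12 and 0.66 ± 0.12. In the gate comparison of Flt3L Panc02 tumours, 10 of the 15 called members with a promoter entry held a CHR element, and 19 of the 24 members not called did.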

How the data were processed

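RNA of 12 libraries of sorted tumour CD8+ T cells was analysed, in 4 groups of 3 that follow the sample titles. TRIzol extraction and library kits of the TruSeq and SMARTer series are stated per the labels' protocols. Strand is not stated, so reads of overlapping antisense genes cannot be told apart. HISAT2, StringTie and mm39 were used per the submitters' processing notes, and the annotation is not given in the sources used here. Estimated counts per gene, written as whole numbers, are the values the authors deposited. Small values peak at 3, 6 and 9, so 1 count is not 1 sequenced fragment. No interval from counts is given, and the totals of 98663008 to 102896605 per library are not a depth in fragments.

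The counts were tested in R 4.3.3 with edgeR 4.0.16, using TMM scaling, filterByExpr by group (20411 of 56980 genes kept) and a single quasi-likelihood fit with 1 mean per group (8 residual degrees of freedom). Adjusted p-values (Benjamini-Hochberg) cover all genes kept, and a gene was called under 0.05 with no minimum fold. The standard error is the unshrunk log2 fold change over the root of F. The script was tested on simulated data. Lengths and GC content came from GENCODE vM21 on GRCm38 and promoters from RefSeq, matched by symbol, on another build than the authors' mm39.

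Values in every library are given for 7 core genes and, in each role, for the 2 members with the smallest unadjusted p in the mean of both gate effects and the 1 with the largest, and members with an extreme fold change may be named. Other mitotic genes and regulators were named by p among those called, up to 3 per direction. Cenpf was added after its values were seen. Members, roles and lists were chosen with earlier results of these data known.

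Samples with the same replicate number deviated together in the 2 gates of Panc02 tumours (r = 0.32 to 0.48 over genes averaging 1 CPM or more, all above 0.1). The numbers were therefore taken to pair those gates, and this pairing rests on the data. The main fit holds no term for the pairing, which enters only among the alternatives, as a replicate block. The alternatives were DESeq2 1.42.0 size factors, upper quartile scaling, scaling to 14 T cell identity transcripts, no filter, a stricter filter (3 libraries at 5 CPM), limma-voom (limma 3.58.1) with quality weights, the DESeq2 test, the compared libraries fitted alone, the replicate block, and leaving out each library. Length and GC terms and runs without libraries in doubt were chosen after seeing the data.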

Additional observations from a re-analysis of the deposited data

How the results depend on the processing

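Counts of members called are given here where they moved by over 1.5 times. The share of all genes called in the same direction stands in brackets, and it moved as well. Between the gates of Panc02 tumours edgeR called 0 higher (0.049%), the DESeq2 test 2 (0.637%) and limma-voom 11 (1.4%). Between the gates of Flt3L Panc02 tumours the count of 19 (2.77%) became 0 (0.392%) with scaling to T cell identity transcripts. It was 31 (6.41%) with the DESeq2 test, 35 (5.7%) with limma-voom and 7 (1.04%) when the compared libraries were fitted alone. A GC term gave 30 (3.76%). Without asGM1- replicate 1 and asGM1+ replicate 3 it was 29 (2.52%), and without 1 library 9 to 26 (0.832% to 3.82%). For the mean of both tumour types 18 (1.68%) became 1 (0.456%) with T cell scaling, 32 (4.47%) with DESeq2 and 41 (4.97%) with limma-voom. It was 31 (3.31%) with a length term, 32 (2.63%) without those 2 libraries and 10 to 26 (0.74% to 2.86%) without 1 library. Between tumour types in asGM1- cells 22 (1.84%) became 2 (0.412%) with T cell scaling, 36 (5.72%) with DESeq2 and 40 (8.32%) with limma-voom. It was 10 (1.13%) without the Panc02 libraries numbered 1 and 5 to 29 (0.24% to 2.45%) without 1 library. In asGM1+ cells 8 (4.2%) became 44 (30.9%) with T cell scaling, 4 (1.47%) with no filter, 18 (8.79%) with DESeq2 and 25 (8.59%) with limma-voom. It was 0 (0%) with the compared libraries alone, 4 (3.69%) with a GC term and 3 (1.22%) without the Panc02 libraries numbered 1. Without Flt3L Panc02 asGM1- replicate 1 and asGM1+ replicate 3 it was 3 (1.14%), and without 1 library 1 to 12 (0.695% to 5.83%). The interaction count of 0 (0.0343% higher) became 1 with DESeq2 (1.15%) and 5 with limma-voom (1.29%). The cause of these shifts was not tested. DESeq2 size factors and upper quartile scaling kept all 6 counts within 1.5 times, and no call of a member named in the text turned to the other direction under the alternatives run. Fits without 1 library leave 2 in that group, and with 3 libraries a group the gain in precision is small.

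With the replicate block the counts were 0 and 20 for the gates of Panc02 and Flt3L Panc02 tumours and 16 for their mean. Of all genes 0.0441%, 2.81% and 1.6% were called higher there. For tumour types in asGM1- and asGM1+ cells they were 20 and 11 (1.8% and 4.7% of all genes lower), and for the interaction 0. With a block within tumour type, which pairs the gates of both tumour types, they were 0, 21, 21 and 0 for the gates, their mean and the interaction. Of all genes 0.103%, 3.77%, 2.72% and 0.191% were then called higher. The pairing changed no count by over 1.5 times. Same-numbered samples correlated at 0.0086 to 0.37 between the gates of Flt3L Panc02 tumours, -0.31 to -0.16 between tumour types in asGM1- cells and -0.05 to 0.08 in asGM1+ cells. With not every pair above 0.1, the numbers were not taken to pair the samples there, and whether they share a tumour was not tested.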
